A study of Mus musculus with 2 samples.

Results

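Mir126a, Mir143 and Mir145a are miRNA genes known from the cells of blood vessels. Mir126a is carried by Egfl7 and is the miRNA best known from endothelial cells, the inner lining of every vessel. Mir143 and Mir145a are neighbours that are cut from 1 primary transcript and are best known from the mural cells around the endothelium, which are smooth muscle cells and pericytes. The 3 genes were found by name through their Ensembl identifiers, by a rule that uses no level, although earlier results of these data were known when they were chosen. They are 3 of the 1973 miRNA genes counted in each library. A count was found in at least 1 library for 683 genes, and 360 genes had at least 10 counts in both, among them all 3 vessel genes.

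Short RNA, with a stated size below 30 bases, had been sequenced from the facial prominences of healthy B6NCrl mouse embryos at 13.5 days, the tissue that forms the upper and lower face. Each of the 2 libraries came from a pool of male and female embryos, and the labels call them biological replicates 1 and 2 of a single group. How many embryos were pooled is not given in the sources used here. No treatment, mutant or second stage was included, so the data give levels and their spread over 2 libraries, and no contrast between conditions.

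In endothelium, miR-126 strengthens the response to vascular endothelial growth factor by repressing inhibitors of that pathway, among them Spred1, and its loss in mice leaves vessels leaky. The pair Mir143 and Mir145a is switched on by serum response factor and myocardin and favours the contractile state of smooth muscle over proliferation, partly through repression of Klf4, Klf5 and Elk1. Neither side is confined to vessels. miR-126 is also known from blood stem cells and platelets, and miR-143 and miR-145 from fibroblasts and other mesenchyme.

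The sequences of the Mir126a locus are given because both of its strands are annotated as miRNA genes. They come from RefSeq on GRCm38.p6, the mm10 build that the files also use. Mir126a lies on the plus strand at chr2:26591357-26591429 and Mir126b on the minus strand at chr2:26591363-26591420. In the hairpin, capitals mark the mature 3p arm, and in the mature miRNAs they mark the seed, bases 2 to 8, which pairs with targets.
Mir126a hairpin: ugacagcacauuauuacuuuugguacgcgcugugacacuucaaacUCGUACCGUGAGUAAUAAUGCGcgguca
mmu-miR-126a-3p: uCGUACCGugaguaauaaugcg
mmu-miR-126b-5p: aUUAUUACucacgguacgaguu
mmu-miR-126b-3p: cGCGUACCaaaaguaauaaugug
Each of these 3 seeds was found in 1 of the 1738 mature miRNAs of that table, so none of them was shared with another miRNA there. The other arm of the Mir126a hairpin had no entry there, and neither had Mir143 and Mir145a, so their seeds could not be searched. The counts are per gene and do not separate the arms of a hairpin. The hairpin is 73 bases long. It lay in an intron of 8 Egfl7 transcripts and in an exon of 1 Egfl7 transcript annotated as a retained intron, in GENCODE release M21. It also lay in an intron of Gm20532, a protein-coding annotation on the same strand.

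Replicate 1 had 4562135 counts on the strand of miRNA genes and replicate 2 had 5771249. In each library these were 44.1% of a total that also held reads unmapped, with several places or on no gene. Reads with several places in the genome, 30.7% of that total in replicate 1 and 31.0% in replicate 2, were not assigned to genes. The cartilage and mesenchyme list, led by Mir214, Mir140 and Mir199b, held 4.94% and 5.14% of counts in replicates 1 and 2, and the epithelium list, led by Mir203, Mir429 and Mir205, held 6.35% and 6.33%. The neural list, led by Mir137, Mir128-1 and Mir128-2, held 0.0516% and 0.0428%, and Mir124a-1, Mir124a-3 and Mir9-2 of that list had no uniquely placed count. Of its 4 genes with at least 10 counts in both libraries, 3 share a run of 18 bases with other transcripts, so the neural list may be undercounted. The list of digestive organs, led by Mir375, Mir192 and Mir122, held 0.0935% and 0.127%. Such runs were also found in 4 of 6 genes of the cartilage and mesenchyme list, 1 of 7 of the epithelium list and 2 of 4 of the digestive list. These lists may thus be undercounted to different degrees. Across the 360 genes with at least 10 counts in both libraries, the coefficient of variation between the libraries beyond counting noise was 17.99%.

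Mir126a was among the most abundant miRNA genes of the tissue. Levels are given as CPM, the counts of a gene per 1000000 counts on miRNA genes of the same library. Mir126a had 117748 counts and 25810 CPM in replicate 1, and 137768 counts and 23871 CPM in replicate 2, with a mean of 24841 ± 1371 CPM (SD, n = 2). It took 2.58% of counts in replicate 1 (95% Wilson interval 2.57 to 2.60%) and 2.39% in replicate 2 (2.37 to 2.40%). These intervals cover counting error only, since amplified reads without molecular identifiers are not independent molecules. Its rank was 12 in each library. In tissue of mixed cell types, a lower level can stand for fewer cells of a type or less RNA per cell, and these cannot be told apart.

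Mir143 stood below Mir126a in both libraries, and the ranges of these 2 genes over the libraries did not overlap. Mir143 had 74449 counts and 16319 CPM in replicate 1, and 110985 counts and 19231 CPM in replicate 2, with a mean of 17775 ± 2059 CPM (SD, n = 2). That was 1.63% of counts in replicate 1 (1.62 to 1.64%) and 1.92% in replicate 2 (1.91 to 1.93%), and rank 17 in replicate 1 and rank 15 in replicate 2.

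Mir145a was far below its partner. It had 1118 counts and 245 CPM in replicate 1, and 1568 counts and 272 CPM in replicate 2, with a mean of 258 ± 18.8 CPM (SD, n = 2). Its share was 0.0245% of counts in replicate 1 (0.0231 to 0.0260%) and 0.0272% in replicate 2 (0.0259 to 0.0285%), and its rank was 142 and 138. Of the 683 genes with a count, 79.8% had a mean level at or below that of Mir145a, against 97.7% for Mir143 and 98.4% for Mir126a. The 3 genes together held 4.24% of counts in replicate 1 and 4.34% in replicate 2.

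**Figure D1:**
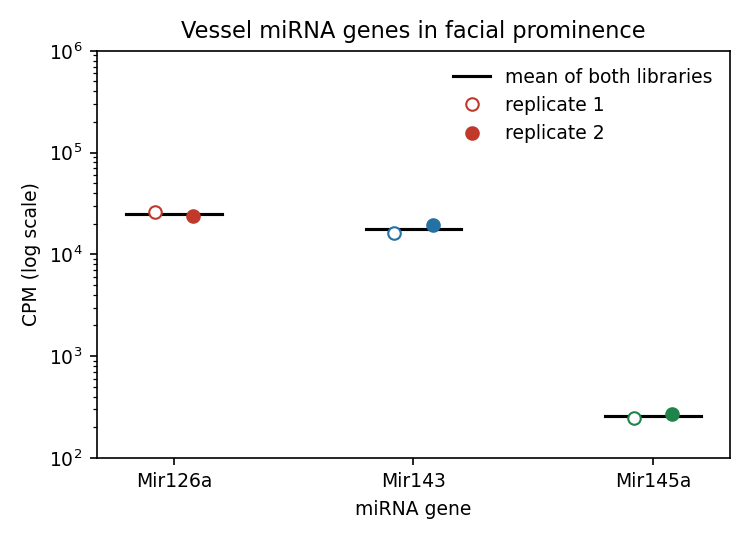
CPM (log scale) of the 3 vessel miRNA genes, with an open circle for replicate 1, a filled circle for replicate 2 and a line at their mean. Mir126a (24841 CPM) and Mir143 (17775 CPM) lie close together, and Mir145a (258 CPM) lies far below both.

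In the order of mean levels, none of the 3 genes was separated from its direct neighbours. Mir126a stood between Mir214 of the mesenchymal Dnm3os transcript (25707 ± 1581 CPM) and Mir99b (24434 ± 1106 CPM), and the library range of each overlapped its own. Those were the only genes whose ranges did so, and 10 genes lay wholly above it. The range of Mir143 was overlapped by those of 6 genes, which were Mir140, Mir203, Mir23a, Mir30e, Mir93 and Mir429, and 13 genes lay wholly above it. Its direct neighbours were Mir23a (18290 ± 1194 CPM) and Mir30e (16421 ± 1438 CPM). For Mir145a, 10 genes overlapped, and the direct neighbours were Mir199a-2 (265 ± 34.2 CPM) and Mir34a (254 ± 14.6 CPM).

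The genes with the most similar levels were found by the distance of log2 CPM over the 2 libraries. Mir99b (distance 0.04), Mir214 (0.07) and Mir26b (0.39) lay nearest to Mir126a. Mir30e (0.16), Mir93 (0.25) and Mir23a (0.27) lay nearest to Mir143, and Mir34a (0.04), Mir199a-2 (0.09) and Mir665 (0.13) nearest to Mir145a. With 2 values per gene this likeness is mostly one of overall level.

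The endothelial signal exceeded the mural signal in both libraries, by a margin that differed between them. Mir126a had 25810 CPM in replicate 1, against 16564 CPM for Mir143 and Mir145a summed, a ratio of counts of 1.56 (95% exact Clopper-Pearson interval 1.54 to 1.57). In replicate 2, Mir126a had 23871 CPM against 19502 CPM for the summed pair, a ratio of 1.22 (1.21 to 1.23). The mean ratio was 1.39 ± 0.236 (SD, n = 2), and the ratio of replicate 1 was 1.27 times that of replicate 2, which is beyond counting error. A single group of 2 libraries allows no test of this difference against the spread between replicates.

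Divided by the annotated length of each gene, the ratio of Mir126a to the summed pair was 1.35 in replicate 1 and 1.06 in replicate 2. A read below 30 bases spans a whole mature miRNA, so read counts do not grow with the length of the hairpin, and both scales are given. The efficiency with which a small RNA is ligated and amplified depends on its sequence, so ratios between genes are ratios of reads and not of molecules or cells.

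The summed levels and calls of other cell type lists are set beside this ratio. A gene was called where its counts differed between the libraries in the exact binomial test described below, which called 55.3% of the 360 genes, 25.0% as higher in replicate 1 and 30.3% as higher in replicate 2. The blood list, with 8 of its 10 genes in the files, summed to 0.0671% of counts in replicate 1 and 0.0723% in replicate 2. Mir142 and Mir142hg of this list were not found in the files, so the sums leave them out. Of its 7 genes with at least 10 counts in both libraries, 1 was higher in replicate 1 and 3 in replicate 2, a share near that of all genes. Mir223 of myeloid cells averaged 373 ± 14.0 CPM, Mir155 of activated lymphocytes and macrophages 121 ± 25.3 CPM and Mir451a of red blood cells 76.0 ± 14.5 CPM. All of these lay far below Mir126a in uniquely placed counts. The striated muscle list summed to 0.0632% in replicate 1 and 0.0404% in replicate 2, with 1 of 5 genes higher in replicate 1 and 3 in replicate 2. It was led by Mir206 of skeletal muscle (442 ± 181 CPM), Mir208b (49.8 ± 15.3 CPM) and Mir133b (12.1 ± 1.46 CPM). Mir1a-1, Mir133a-1 and Mir133a-2 had no uniquely placed count. A run of 18 bases shared with other transcripts was found in 3 of 7 tested genes of the blood list, among them Mir223. Such a run was also found in 3 of 5 tested genes of the striated muscle list, among them Mir206 and Mir133b. Reads with several places were not assigned to genes, so both lists may be undercounted. In the cartilage and mesenchyme list, 2 of 6 genes were higher in replicate 1 and 4 in replicate 2, and in the epithelium list, whose sums were 6.35% and 6.33%, 2 of 7 genes were higher in replicate 1 and 5 in replicate 2. The part of these cell types in the ratio of Mir126a to the mural pair was not tested.

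Within the mural pair, Mir143 outnumbered Mir145a by nearly the same factor in both libraries. The ratio of Mir143 to Mir145a counts was 66.6 in replicate 1 (95% exact Clopper-Pearson interval 62.8 to 70.7) and 70.8 in replicate 2 (67.3 to 74.4), and the intervals overlapped. The mean was 68.7 ± 2.96 (SD, n = 2). Per annotated base it was 74.0 in replicate 1 and 78.6 in replicate 2. Mir145a thus made up 1.48% of the pair's counts in replicate 1 and 1.39% in replicate 2.

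**Figure D2:**
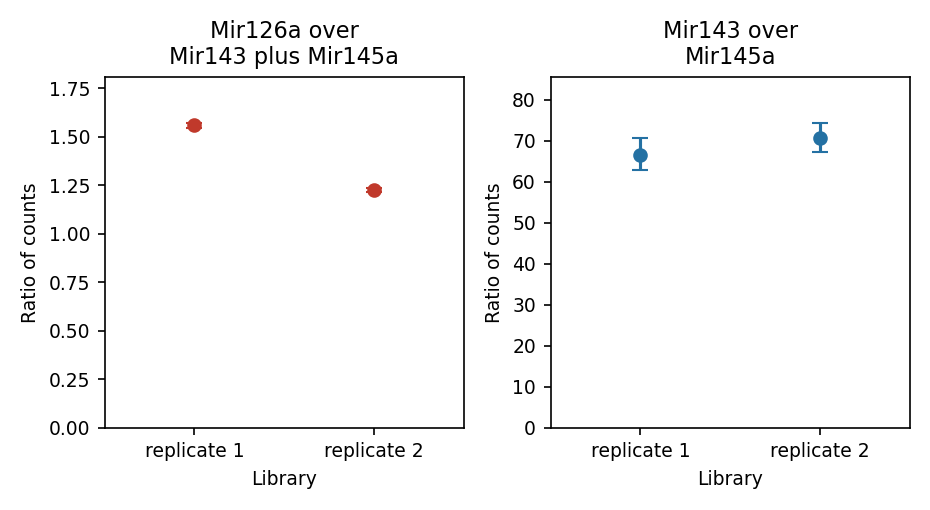
Ratio of counts in each library, for Mir126a over Mir143 plus Mir145a (left) and for Mir143 over Mir145a (right), with bars for the 95% exact Clopper-Pearson interval, which covers counting error only. The left ratio is 1.56 in replicate 1 and 1.22 in replicate 2 with intervals that do not overlap, and the right ratio is 66.6 and 70.8 with intervals that do.

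In GRCm38, Mir143 spans bases 61649196 to 61649258 of chromosome 18 on the minus strand, and Mir145a follows it on the same strand from 61647825 to 61647894, with 1301 bases between them. No other gene of GENCODE release M21 overlapped either of them. The version numbers of their identifiers in the files (ENSMUSG00000065445.2 and ENSMUSG00000065592.1) are older than in release M21, so the ends used by the authors may differ from these, as may the lengths of 63 and 70 bases. Mir126a has the same version (ENSMUSG00000065540.1) in both.

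Reads that fit more than 1 place were not counted, which would lower a gene that shares its sequence with another. None of the 3 hairpins shared a run of 18 bases with any other annotated transcript elsewhere, whereas 207 of the 360 genes with at least 10 counts in both libraries did. The search covered transcripts and not the rest of the genome. Mir145b, a gene related to Mir145a, shared a run of at most 17 bases with it. Mir145b had 0 counts in both libraries, which allows up to 3 uniquely placed counts, or 0.658 CPM in replicate 1 and 0.520 CPM in replicate 2.

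Among neighbouring miRNA genes, the imbalance of Mir143 and Mir145a was wide. Over all 94 pairs of adjacent genes on 1 strand with at most 10 kb between them and at least 10 counts of both genes in both libraries, the median ratio of the higher to the lower gene was 7.63. The mural pair ranked 14 by this ratio. It stood between Mir130b over Mir301b, at 71.0 in replicate 1 and 75.0 in replicate 2, and Mir542 over Mir450-2, at 67.3 and 69.0. Of the 13 pairs with a wider ratio, 11 had a gene that shares a run of 18 bases with another transcript and may be undercounted. This could be the higher or the lower gene, and 69 of all 94 pairs had such a gene. Among the 25 pairs with no such gene, a comparison chosen after the values were seen, the mural pair ranked 3 and the median ratio was 8.15. By the mean log2 ratio of the libraries, only Mir20a over Mir19a, at 149 and 222, and Mir18 over Mir19a, at 63.8 and 84.4, were wider there, and in replicate 1 the second of these was narrower than the mural pair. Next below it by that mean stood Mir369 over Mir412, at 51.4 and 63.8. The log2 ratio within the mural pair differed by 0.09 between the libraries, against a median of 0.21 over the 94 pairs, where it ranked 70 from the largest difference. Over the 25 pairs the median difference was 0.12, and the mural pair ranked 15.

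**Figure D3:**
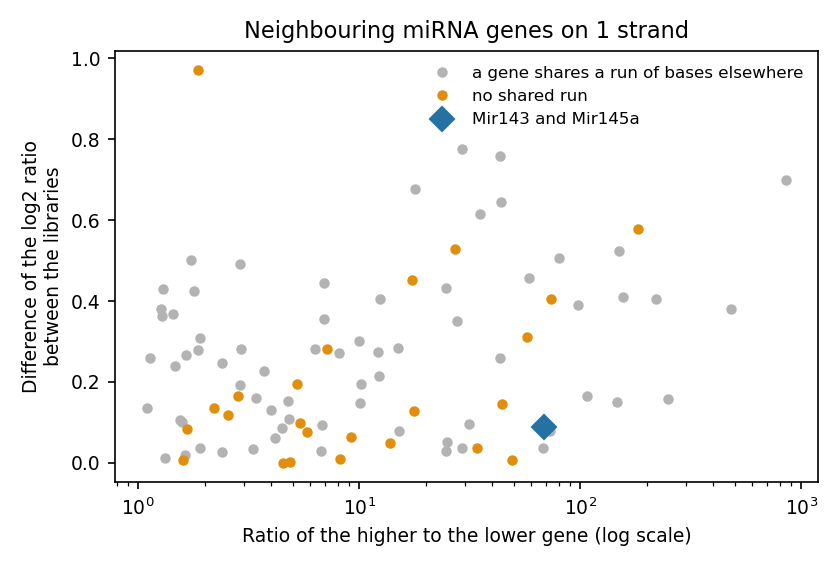
Each point is 1 of 94 pairs of neighbouring miRNA genes, with the ratio of the higher to the lower gene across (log scale) and the difference of that log2 ratio between the libraries upwards, in grey where a gene of the pair shares a run of 18 bases elsewhere and in orange where neither does. The diamond of Mir143 and Mir145a lies at a ratio of 68.7 and a difference of 0.09, to the right of most pairs.

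All 3 vessel genes differed between the libraries by more than counting noise, the endothelial gene in one direction and both mural genes in the other. For each gene, the split of its counts over the libraries was set against the split of the TMM-scaled library sizes by an exact binomial test, two-sided, with Benjamini-Hochberg adjustment over 360 genes. At an adjusted p under 0.05 the test called 199 of the 360 genes (55.3%), 90 as higher in replicate 1 and 109 as higher in replicate 2, so a call was common at this depth. With gene totals in place of TMM these numbers were 98 and 100. It sets these 2 libraries against counting error and not against biological spread. Mir126a was higher in replicate 1, by 0.09 on the log2 scale (adjusted p = 2.01e-53, exact binomial test). Mir143 was lower in replicate 1, at a log2 ratio of replicate 1 to replicate 2 of -0.26 (adjusted p of at most 3e-299, exact binomial test, where p-values under 1e-300 are given as 1e-300). Mir145a was also lower in replicate 1, at -0.17 (adjusted p = 0.00518, exact binomial test).

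These shifts were not large among the 360 genes. The median log2 ratio of all 360 genes was -0.02. A smaller absolute log2 ratio was found in 20.8% of the 360 genes for Mir126a, in 54.4% for Mir143 and in 37.8% for Mir145a. Genes with few counts have wider ratios from counting noise alone, so these shares depend on the depth of the genes compared. In fold terms replicate 2 exceeded replicate 1 by 1.20 for Mir143 and by 1.13 for Mir145a, and replicate 1 exceeded replicate 2 by 1.06 for Mir126a.

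Other miRNA genes linked to endothelium and the growth of vessels were spread over a wide range of levels, and most are also active in other cells. Of the 26 genes on that list, 25 were in the files, and all 25 had at least 10 counts in both libraries. Together they held 25.5 ± 0.640% of counts (SD, n = 2). By the exact binomial test 7 were higher in replicate 1, 11 were higher in replicate 2 and 7 did not pass, with a median log2 ratio of -0.04. Of all 360 genes tested, 25.0% were higher in replicate 1 and 30.3% in replicate 2, and genes with many counts are called more readily. Mir126a was the fifth of the 25 by level. Above it stood Mir23b (56985 ± 11827 CPM), Mir322 (43792 ± 4597 CPM), Mir17 (36397 ± 32.0 CPM) and Mir130a (33083 ± 2498 CPM). Of these, Mir130a is known from human endothelial cells to repress antiangiogenic homeobox genes, and Mir23b belongs to a cluster whose members act on endothelial sprouting.

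Below Mir126a came Mir23a, at 18290 ± 1194 CPM, and Mir20a of the Mir17 cluster, at 13445 ± 1314 CPM. Mir18 (5419 ± 75.0 CPM) comes from the same cluster, as does Mir92-1 (3445 ± 163 CPM), which is known to restrain vessel growth in mice. Mir296, Mir27b, Mir361, Mir101b and Mir139 ranged between 4775 ± 601 and 1680 ± 59.8 CPM. Mir503 of the Mir322 cluster reached 984 ± 33.2 CPM, the lowest of the first 15. Of the 25 genes, 15 shared a run of 18 bases with another transcript and may be undercounted, while Mir126a, Mir322, Mir130a and Mir20a did not.

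The list tied to smooth muscle and mural cells was smaller and was dominated by Mir143. Of its 12 genes, 11 were in the files and 10 had at least 10 counts in both libraries, and these held 2.36% of counts in replicate 1 and 2.73% in replicate 2. Mir143 alone took 1.63% and 1.92%. By the exact binomial test 2 genes were higher in replicate 1, 5 were higher in replicate 2 and 3 did not pass, with a median log2 ratio of -0.18. The shares over all 360 genes tested were 25.0% and 30.3%. Mir21a, which rises in injured rat arteries and is active in many tissues, was next at 5747 ± 583 CPM, and Mir28a followed at 1288 ± 92.6 CPM. Both stood above Mir145a. Mir204 (132 ± 53.9 CPM), Mir221 (122 ± 7.13 CPM) and Mir222 (79.5 ± 0.530 CPM) stood below it. Mir221 and Mir222, known from rat smooth muscle to drive proliferation and from human endothelial cells to restrain growth, are on both lists. Mir26a-2, Mir490 and Mir26a-1 averaged 42.7 ± 3.34, 11.5 ± 3.83 and 10.5 ± 6.75 CPM. A run of 18 bases shared with other transcripts was found in 5 of the 10 genes, which may be undercounted. These were Mir28a, Mir221, Mir222 and both Mir26a genes.

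**Figure D4:**
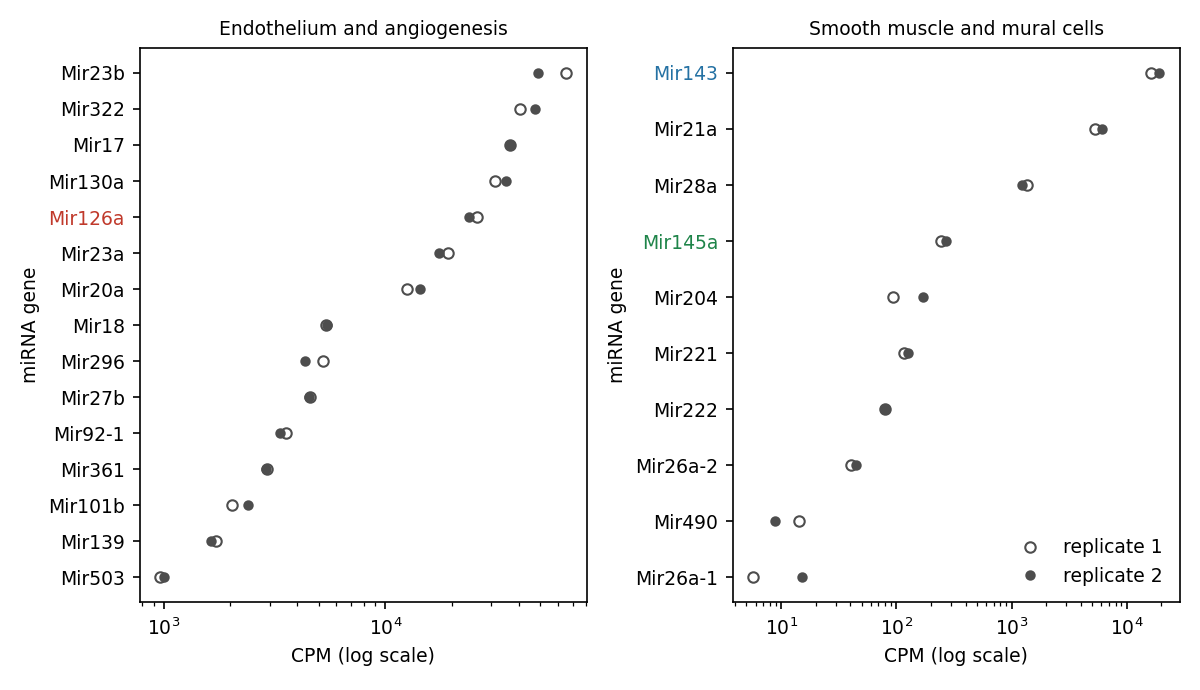
CPM (log scale) in replicate 1 (open) and replicate 2 (filled) of the first 15 genes of the endothelium and angiogenesis list (left) and of the 10 genes of the smooth muscle and mural list with at least 10 counts in both libraries (right). Mir126a is the fifth gene on the left at 24841 CPM, and on the right Mir143 leads at 17775 CPM with Mir145a behind Mir21a and Mir28a at 258 CPM.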

How the data were processed

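The authors deposited raw read counts per miRNA gene, made on the mm10 build with annotation M4, per the deposited description files. For aligner, counter and trimming: not given in the sources used here. The files have no header. From their layout, the 3 columns hold unstranded, same-strand and opposite-strand counts, and the same-strand column was used. The 4 lines of read classes name no gene and were kept out of all totals. Unmapped reads, reads with several places and reads on no gene of the same strand held 55.9% of their sum with the gene counts in each library. The remaining class line was left out of that sum. Names and positions came from GENCODE release M21 (GRCm38), matched by identifier without version for 1894 of 1973 genes, and list names were also matched through RefSeq synonyms.

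TMM factors over all genes and the common dispersion came from edgeR 4.0.16 (R 4.3.3), and size factors for an alternative from DESeq2 1.42.0. The exact binomial test, Wilson and Clopper-Pearson intervals were computed in SciPy 1.17.1. The test and the ratio intervals were tried on simulated counts with counting noise only. That simulation held no further spread between libraries, so it cannot show how they behave under the spread seen here. One group of 2 libraries allows no contrast of conditions. Other genes were named by fixed rules: up to 15 genes per vessel list and up to 3 per marker list, direct neighbours in level, the 3 genes nearest in level and the pairs ranked beside the mural pair. Mir20a over Mir19a was named after its values were seen. The vessel genes and lists were chosen with earlier results of these data known.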

Additional observations from a re-analysis of the deposited data

Results flagged for a closer look

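Counts on the opposite strand, which enter none of the levels above, were found at Mir126a. Mir126a had 7 opposite-strand counts in replicate 1 and 10 in replicate 2, which is over the limit of 3 set by a count of 0. These are 0.00594% and 0.00726% of its same-strand counts. Mir143 and Mir145a had 0 in both libraries, and the depth of Mir145a is too low to show a share like that of Mir126a. Mir126b is annotated on that strand and has no line of its own in the files. Among 65 other genes with at least 10000 same-strand counts in both libraries and no miRNA gene of GENCODE release M21 on the other strand, 12 had any opposite-strand count, and 4 of these had a share at least as high as that of Mir126a in both libraries. The source of these counts was not tested.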

How the results depend on the processing

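Of 41 values recomputed under an alternative that keeps both libraries, 35 were classed as the same. Log2 ratios in this class kept their direction and call, and levels and ratios moved by less than the SD between replicates. Numbers of called genes and ranks of the pair have no direction, call or SD, so their class says little about stability. Only a log2 ratio can change sign, and none did. All 3 vessel genes kept their call and direction under DESeq2 size factors, gene totals, count minimums of 1 and 100 and the unstranded column, with adjusted p for Mir145a between 0.00388 and 0.0180 (exact binomial test). The count minimums leave each log2 ratio unchanged by definition, so only the adjusted p could move there. The called genes numbered between 178 of 259 tested genes, at a minimum of 100 counts, and 208 of 369, in the unstranded column. At a minimum of 1 count they were 202 of 552, so the called share changed with the genes tested. Leaving out 1 of 2 libraries always moves a mean by less than the SD and says nothing about stability. Without the most abundant gene, Mirlet7i, in the total, Mir126a averaged 26594 CPM. The ratio of Mir126a to the mural signal was 2.78 against the mean of Mir143 and Mir145a and 96.6 against Mir145a alone, and Mir143 over Mir145a was 76.3 per annotated base, changes that follow from the definitions. Leaving out a library gave ratios of Mir126a to the pair between 1.22 and 1.56. The mural pair ranked 24 of 115 pairs at a minimum of 1 count, where more pairs enter, and 3 of 25 among pairs with no shared run, an alternative chosen after seeing the data. No paired analysis was possible because there is 1 group. Having 2 libraries limits every statement on spread.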
